A study of Mus musculus with 12 samples.

Results

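The BCL2 family genes that set whether a T cell survives or dies were examined in progenitor CD8+ T (T_prog_) cells with and without UTX, the histone demethylase encoded by the X-linked gene *Kdm6a*. The 10 members were chosen by gene symbol, 3 pro-survival genes (*Bcl2*, *Bcl2l1* and *Mcl1*) and 7 pro-death genes (*Bax*, *Bak1*, *Bcl2l11*, *Bbc3*, *Pmaip1*, *Bid* and *Bad*), and all 10 were among the 25860 genes listed in the RNA-seq table. The ATAC-seq table assigned 33 of its 23932 listed peaks to them. Both assays used sorted cells of the pancreatic lymph node, with 3 libraries per genotype and assay. The mice were on the nonobese diabetic (NOD) background, and both genotypes carried the 8.3 T cell receptor transgene, which recognizes the β cell antigen IGRP. *NOD-TCR 8.3 UTX TCD* mice had floxed UTX alleles (UTX fl/fl) and a Cre transgene driven by the T cell promoter of Lck. *NOD-TCR 8.3 WT* mice were the UTX-sufficient controls. Cre-negative littermates are named as the controls for the line without the receptor transgene. According to the methods, only females were used. The age of the mice in these libraries is not given in the sources used here. The sort is described as Ly108 without CXCR6 in the labels and as Ly108+CD39- in the methods.

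Counted reads per RNA-seq library were 146456724, 144503203 and 193568919 in WT and 61512402, 175462433 and 187275082 in UTX TCD replicates 1, 2 and 3. Values below are normalized counts, that is, counts per gene divided by 1 size factor per library. *Kdm6a*, the deleted gene, had normalized counts of 28365, 28949 and 29172 in WT replicates 1, 2 and 3 and of 24159, 24792 and 24579 in UTX TCD replicates 1, 2 and 3. All UTX TCD values lay below all WT values (log2 fold change -0.23, SE 0.04, limma adjusted p = 0.00114). A count over the whole gene does not show which exons were read. Transcripts of all 6 CD8 T cell markers (*Cd3d*, *Cd3e*, *Cd3g*, *Cd8a*, *Cd8b1* and *Lck*) were abundant, with a summed normalized count of 942880, 896940 and 927820 in WT and of 917690, 900930 and 827290 in UTX TCD replicates. Of these 6, *Cd3e* passed as higher, *Cd3d*, *Cd3g*, *Cd8b1* and *Lck* passed as lower, and none was called. Of the progenitor markers, *Tcf7* was counted at 220872 to 244276 in the 6 libraries, *Ccr7* at 47284 to 54347 and *Slamf6* at 23305 to 36665, and none of these 3 passed the test. Of the CD4 T cell markers, *Cd4* did not exceed 103.7 and was called lower (log2 fold change -0.74, limma adjusted p = 0.0384). *Foxp3* reached 317 with overlapping groups, and *Cd40lg* was lower in every UTX TCD library but did not pass (limma adjusted p = 0.0534). Myeloid markers ranged from *S100a8* and *S100a9*, with no reads, to *Cst3* at 2537 to 4454, and they moved both ways. *Cst3* and *Csf1r* passed as lower, and *Cd68* passed as higher. The NK cell marker *Klrk1*, at 4457 to 5475, overlapped between the genotypes. Among B cell markers, *Cd79b* was lower in UTX TCD cells (2299 in WT and 583 in UTX TCD on average), whereas *Cd79a* overlapped between the genotypes and the few *Ms4a1* transcripts were higher in UTX TCD cells. *Cxcr6*, a mediator marker named in the sort gate, averaged 12033 in WT and 5658 in UTX TCD cells and was called lower (log2 fold change -1.07, limma adjusted p = 0.000131). Of the other 4 mediator markers, *Gzmb* and *Havcr2* passed as lower. *Havcr2* had few reads, 18, 22 and 19 in WT and 1, 4 and 5 in UTX TCD replicates. *Entpd1*, which encodes the CD39 of the other gate, had only 2 to 30 reads per library and did not pass (limma adjusted p = 0.131). Nor did *Prf1*, which was higher in every UTX TCD library (limma adjusted p = 0.0892).

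Proteins of the BCL2 family decide whether the outer mitochondrial membrane is opened, the step that commits a cell to apoptosis. Pro-survival members hold the pore-forming effectors BAX and BAK in check, and BH3-only members free or activate those effectors when a cell is stressed or loses its cytokines. In T cells, the balance of BCL2 and the BH3-only protein BIM is known for governing how long naive and memory cells live.

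All 10 members were among the 14459 genes tested with limma on log2(normalized count + 1), those whose normalized counts averaged 10 or more. Passing the test means a Benjamini-Hochberg adjusted p under 0.05 over all tested genes. A gene was called where its log2 fold change, UTX TCD over WT, also exceeded 0.5 in size. Of the 10 members, 3 passed the test and were higher in UTX TCD cells (*Bcl2*, *Bcl2l1* and *Bbc3*), while 20.2% of all tested genes did so. Another 4 members passed and were lower (*Bak1*, *Bcl2l11*, *Pmaip1* and *Bid*), beside 20.5% of tested genes. *Mcl1*, *Bax* and *Bad* did not pass. Called members were *Bcl2* and *Bbc3*, 2 of 10, both higher, while 10.5% of tested genes were called higher. No member was called lower with limma, edgeR or DESeq2, beside 7.05% of tested genes, although the 4 lower members had adjusted p-values under 0.05 with limma. The groups did not overlap in 7 of the 10 members, beside 51.9% of tested genes. With every library scaled to the same sum, the genes that passed shifted from 2924 higher and 2963 lower to 3793 higher and 2182 lower. Under that scaling, 3 members passed as higher and 1 as lower. In bulk RNA, fewer cells of a type and less RNA per cell cannot be told apart.

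Among the pro-survival genes, *Bcl2*, which encodes the founding survival protein of the family, differed most. Normalized counts of *Bcl2* were 18200, 17081 and 17912 in WT replicates and 40707, 39557 and 49953 in UTX TCD replicates. Every UTX TCD library was far above every WT library, and UTX TCD replicate 3 was the highest. The increase was 2.44-fold on the log2(normalized count + 1) scale (log2 fold change 1.28, SE 0.08, adjusted p = 6.75e-06 from limma). *Bcl2l1*, on chromosome 2 of GRCm38 (mm10) from 152758732 to 152833803, encodes BCL-XL, a survival protein that protects activated cells. It was counted at 2255, 2225 and 2340 in WT and at 2749, 2715 and 3070 in UTX TCD replicates. The groups did not overlap, and the rise of 1.25-fold (log2 fold change 0.32, SE 0.07, adjusted p = 0.00424 from limma) was short of the limit for a call. *Mcl1*, on chromosome 3 from 95656944 to 95663179, encodes a short-lived survival protein needed throughout T cell life. Its normalized counts were 62928, 67184 and 67686 in WT and 60286, 65030 and 61022 in UTX TCD replicates. These ranges overlapped, and the gene did not pass (log2 fold change -0.09, SE 0.05, limma adjusted p = 0.194).

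The pore-forming effectors BAX and BAK, which assemble into the pore itself, differed from each other. *Bak1*, on chromosome 17 from 27019812 to 27028627, was counted at 10885, 9902 and 10958 in WT replicates and at 8269, 8417 and 8245 in UTX TCD replicates. The UTX TCD libraries lay close together and below every WT library. *Bak1* fell by 0.35 on the log2 scale (SE 0.05, adjusted p = 0.000641 from limma), which is 1.27-fold and short of a call. *Bax* had normalized counts of 4954, 5395 and 5318 in WT and of 5140, 5489 and 5858 in UTX TCD replicates. Its groups overlapped, and it did not pass (log2 fold change 0.07, SE 0.06, limma adjusted p = 0.38).

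Of the 5 BH3-only genes, *Bbc3* alone passed as higher. *Bbc3*, on chromosome 7 from 16308398 to 16318334, encodes PUMA, a potent killer protein first known as a p53 target. It was counted at 763, 1255 and 760 in WT replicates 1, 2 and 3 and at 2481, 2486 and 2203 in UTX TCD replicates. All UTX TCD values exceeded all WT values, and WT replicate 2 stood above the other WT libraries. *Bbc3* rose 2.65-fold (log2 fold change 1.41, SE 0.18, adjusted p = 0.000294 from limma), and the log2 fold change was 1.65 without WT replicate 2.

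*Bcl2l11*, on chromosome 2 from 128126038 to 128162547, encodes BIM, the BH3-only protein that removes T cells deprived of cytokine. Its normalized counts were 13310, 20349 and 13858 in WT replicates 1, 2 and 3 and 11854, 12779 and 10544 in UTX TCD replicates. Here too WT replicate 2 was high, and the lowest WT value lay just above the highest UTX TCD value. The log2 fold change was -0.41 (SE 0.15), with an adjusted p of 0.0496 from limma that sat at the limit. Without WT replicate 2 it was -0.22 (adjusted p = 0.0617 from limma), and the adjusted p was under 0.05 in 6 of 15 alternative fits, with a range from 0.0106 to 0.147. WT replicate 2 exceeded both other WT libraries by at least the 0.55 on the log2 scale seen for *Bcl2l11* in 382 of 14459 tested genes, or 2.64%, and the share was between 0.775% and 3.33% for the other libraries within their own genotype. *Il7r*, the receptor chain for the survival cytokine IL-7, was counted at 38077, 79127 and 37105 in WT and at 40509, 39892 and 38044 in UTX TCD replicates. Its groups overlapped, and it did not pass (log2 fold change -0.29, SE 0.24, limma adjusted p = 0.38). *Il7r* was named after its values were seen, because it was high in the same WT library as *Bcl2l11* and *Bbc3*.

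*Pmaip1*, which encodes NOXA, a partner of MCL1, was counted at 1814, 2104 and 1819 in WT replicates and at 1521, 1598 and 1567 in UTX TCD replicates. The groups were apart, and *Pmaip1* fell by 0.29 on the log2 scale (SE 0.08, adjusted p = 0.0154 from limma). *Bid*, whose protein is cut by caspase 8 to link death receptors to mitochondria, was counted at 3834, 3401 and 3538 in WT and at 3100, 3048 and 3335 in UTX TCD replicates. Its lowest WT and highest UTX TCD values were close, and the adjusted p of 0.0471 from limma (log2 fold change -0.18, SE 0.06) was under 0.05 in 7 of 15 alternative fits and ranged from 0.0286 to 0.189. *Bad*, whose protein is held inactive by survival kinases, had normalized counts of 1027, 891 and 985 in WT and of 794, 1002 and 892 in UTX TCD replicates. UTX TCD replicate 2 of *Bad* was above 2 of the WT libraries, and the gene did not pass (log2 fold change -0.11, SE 0.11, limma adjusted p = 0.425). The genes *Bcl2l1*, *Bak1* and *Bad* are overlapped on the other strand by *Cox4i2*, *Ggnbp1* and *Gpr137*. Strand in the counting is not given in the sources used here, so how reads in shared stretches were assigned is not known. Overlap was taken over whole genes and not over exons.

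**Figure D1:**
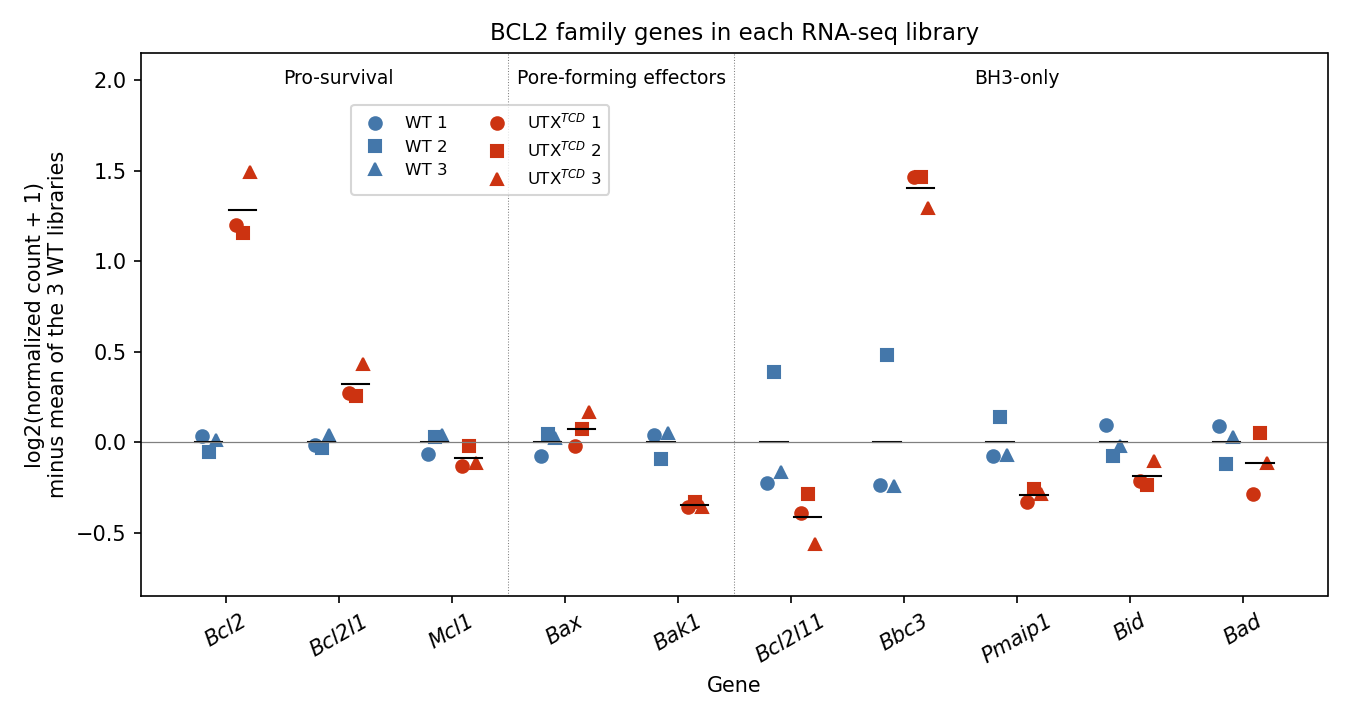
Each point is 1 RNA-seq library, WT in blue and UTX TCD in red, plotted as log2(normalized count + 1) minus the mean of the 3 WT libraries for the 10 BCL2 family genes, and black lines are the means of 3. *Bcl2* and *Bbc3* stand above all others in UTX TCD cells, with log2 fold changes of 1.28 and 1.41, and WT replicate 2 (blue square) is high for *Bcl2l11* and *Bbc3*.

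Set side by side, the 3 pro-survival genes had a median log2 fold change of 0.32 and the 7 pro-death genes one of -0.18, while the median over all tested genes was -0.0002. Pro-survival members numbered 2 higher and 0 lower past the test, and pro-death members 1 higher and 4 lower. Each class held 1 called gene, *Bcl2* and *Bbc3*. In the single libraries, the median difference of the pro-survival genes from their WT means was 0.27, 0.26 and 0.43 in UTX TCD replicates. For the pro-death genes that median was -0.28, -0.23 and -0.11. These medians hide members that went the other way. *Mcl1* lay below its WT mean in all 3 UTX TCD libraries, *Bbc3* lay above it in all 3, and *Bax* lay above it in 2. With 3 genes, the pro-survival median follows *Bcl2l1* in the main fit, and the classes were not tested against each other.

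Per kilobase of exon, the ratio of *Bcl2* to *Bcl2l11* was 1.06, 0.36 and 0.98 on the log2 scale in WT replicates 1, 2 and 3 and 2.39, 2.24 and 2.85 in UTX TCD replicates. Every UTX TCD library was above every WT library. Means were 0.80 ± 0.39 for WT and 2.49 ± 0.32 for UTX TCD cells (SD, n = 3 each), a difference of 1.69 that exceeded the spread of either group. Measured against *Bbc3* instead, the log2 ratio of *Bcl2* was 3.39, 2.58 and 3.37 in WT replicates and 2.85, 2.80 and 3.31 in UTX TCD replicates. Those values overlapped, and the difference of -0.12 was within the spread (SD 0.46 in WT and 0.28 in UTX TCD, n = 3 each).

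Levels were compared between genes per kilobase of RefSeq exon, since the annotation used for counting is not given in the sources used here and exon lengths are therefore approximate. In WT cells *Mcl1* stood first, at 12523 ± 497 normalized counts per kb (SD, n = 3). *Bax* and *Bak1* followed at 5658 ± 255 and 5231 ± 291 (SD, n = 3 each), and these neighbours overlapped. *Bcl2* came next at 2413 ± 79.1 (SD, n = 3), above *Bid* at 1609 ± 99.1 (SD, n = 3). *Bid* and *Bcl2l11*, at 1413 ± 349 per kb (SD, n = 3), overlapped. *Pmaip1* at 720 ± 62.6 lay just above *Bad* at 636 ± 46.0 (SD, n = 3 each). *Bcl2l1* and *Bbc3* were the lowest members in WT cells, at 310 ± 8.11 and 288 ± 88.5 per kb (SD, n = 3 each), and they overlapped too. In UTX TCD cells *Bcl2* reached 5906 ± 776 per kb (SD, n = 3), a level that overlapped that of *Bax* at 5954 ± 389 per kb (SD, n = 3). *Bbc3*, at 742 ± 50.4 per kb in UTX TCD cells (SD, n = 3), was there above *Bcl2l1* at 388 ± 26.7, *Bad* at 589 ± 68.3 and *Pmaip1* at 588 ± 14.6 per kb (SD, n = 3 each).

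**Figure D2:**
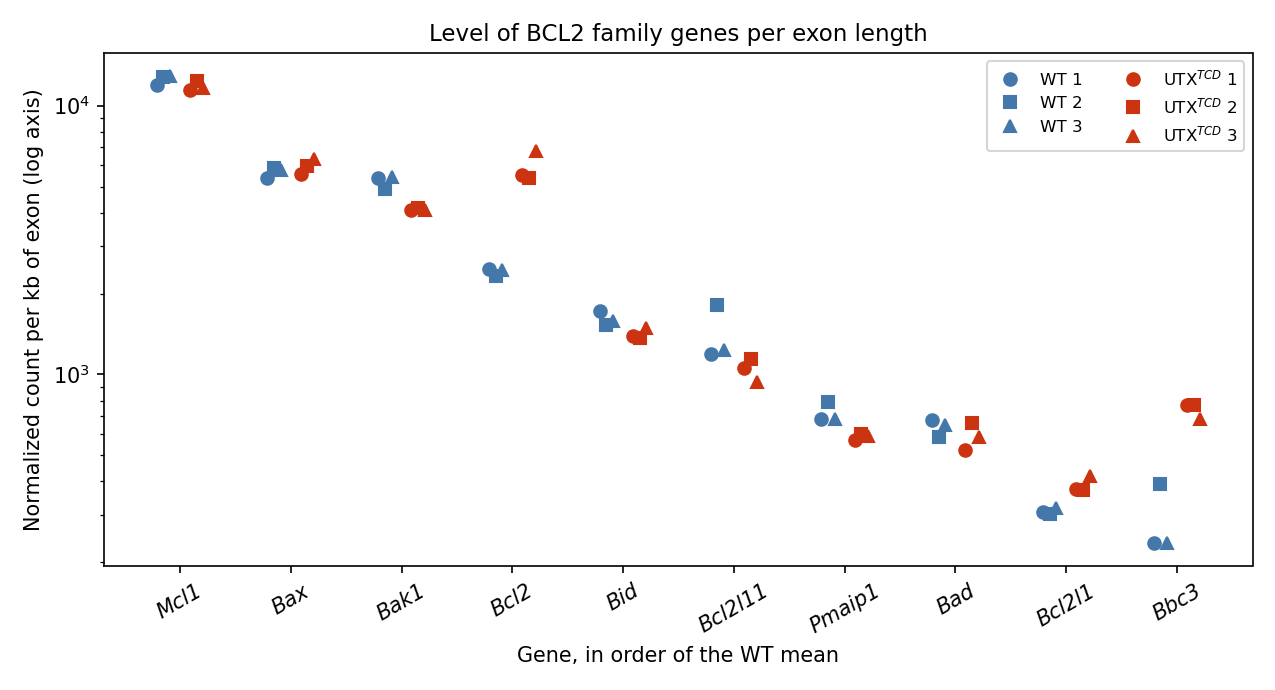
Each point is 1 RNA-seq library, WT in blue and UTX TCD in red, and the vertical log axis gives the normalized count per kb of RefSeq exon for the 10 genes in order of their WT mean. *Mcl1* is highest in both genotypes, and *Bcl2* moves from 2413 per kb in WT to 5906 per kb in UTX TCD cells, the level of *Bax*.

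ATAC-seq reads out accessible DNA through the cuts of a transposase. The table held only peaks past an FDR of 0.05 in the authors' comparison, so a gene without a peak is one with no listed difference. Values per library were not used here, and a peak is described by the authors' mean log2 concentration in each genotype, with no spread and no test. Of the 33 peaks assigned to the 10 genes, 13 were higher in UTX TCD cells and 20 were lower, a share of 39.4% higher beside 68.8% of all listed peaks. The median difference, UTX TCD minus WT, was -0.49 for the 33 peaks and 0.49 for all 23932. Pro-survival genes had 12 peaks, 5 higher and 7 lower, and pro-death genes had 21, of which 8 were higher and 13 lower. *Bax*, *Bak1* and *Bad* had no listed peak. No peak of the 10 genes was annotated as a promoter, whereas 11% of all listed peaks were. The median distance to a transcription start site was 25.9 kb for the 33 peaks, beside 16.8 kb for all listed peaks. Distances are those of the authors' annotation, which may use another start site of a gene than the outermost one in RefSeq.

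Around the pro-survival genes, the listed peaks did not all go one way. All 6 *Bcl2* peaks lay in intron 1, and the 2 nearest to the transcription start site, at 7558 and 6829 bp, had the largest differences, 0.91 and 0.81. The 2 lower *Bcl2* peaks were the farthest from it, at 77324 and 74173 bp, with differences of -0.44 and -0.49. *Bcl2l1* had 3 peaks in its intron 2, and the peak at chr2:152803128-152803528 rose from a mean log2 concentration of 7.30 in WT to 8.58 in UTX TCD cells. The other 2 peaks of *Bcl2l1* were lower, by -0.78 and -0.43. Near *Mcl1*, 3 peaks between genes, upstream of the start site, were all lower in UTX TCD cells, with differences of -0.64, -1.04 and -0.83, while the *Mcl1* transcript did not pass the test.

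*Bcl2l11* carried 13 of the 33 peaks, and 78 of the 10612 genes with a listed peak had at least that many. These comprised 4 higher and 9 lower peaks, with a median difference of -0.71. All 6 peaks upstream of the gene were lower, from -2.29 to -0.64 with a median of -1.28, and all 6 lay in introns of the neighbouring gene *Acoxl*, which runs on the same strand from 127838797 to 128126252 and ends inside the start of *Bcl2l11*. Downstream of the start, 4 peaks were higher and 3 lower. The peak at chr2:128068083-128068483, in intron 14 of 17 of *Acoxl* and 57755 bp upstream of the *Bcl2l11* start site, had a mean log2 concentration of 7.84 in WT and 5.55 in UTX TCD cells. Next in size was the peak at chr2:128103442-128103842, in intron 16 of *Acoxl* and 22396 bp upstream, with 8.54 in WT and 6.55 in UTX TCD cells. Inside *Bcl2l11*, the peak at chr2:128133916-128134316 was higher, at 5.41 in WT and 6.50 in UTX TCD cells.

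The peaks upstream of *Bcl2l11* are assigned to it as the nearest promoter, and the transcript of the gene in which they lie also differed. *Acoxl*, which encodes an acyl-CoA oxidase-like protein, was counted at 158, 179 and 131 in WT and at 36.0, 20.8 and 28.7 in UTX TCD replicates. It fell by 2.43 on the log2 scale (SE 0.26, adjusted p = 0.000115 from limma), with no overlap of the groups. *Acoxl* was named after its values were seen. Which of the neighbours the 6 peaks bear on was not tested.

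**Figure D3:**
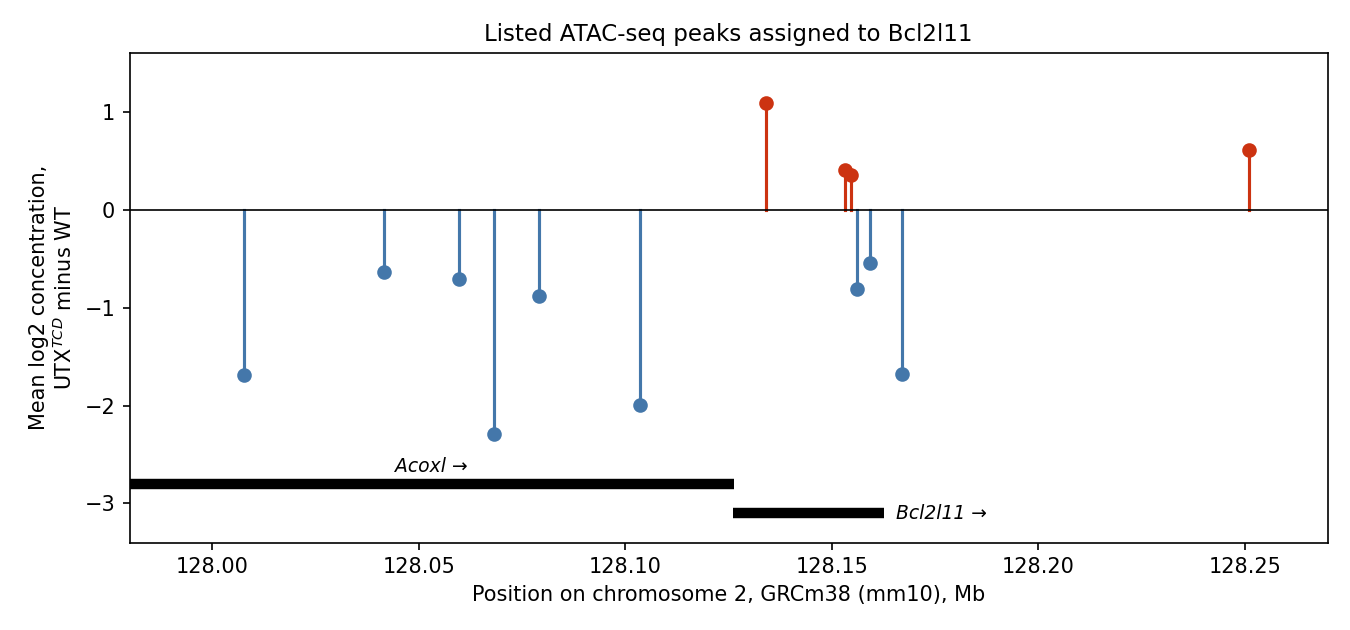
Each stem is 1 of the 13 listed ATAC-seq peaks assigned to *Bcl2l11*, placed at its position on chromosome 2 (GRCm38), with the difference of the authors' mean log2 concentrations, UTX TCD minus WT, on the vertical axis, and black bars are the genes with arrows for their strand. The 6 peaks within *Acoxl* are all lower in UTX TCD cells, down to -2.29, and those at and beyond *Bcl2l11* go both ways.

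The other BH3-only genes had few listed peaks. *Bbc3* had 4, and the peak nearest to its start, at chr7:16310038-16310438 and 655 bp downstream of the start site used in the authors' annotation, was the most open of the 33 peaks, at a mean log2 concentration of 11.60 in WT and 12.01 in UTX TCD cells. That start site lies inside the RefSeq gene given above, whose own start is farther from the peak. The 3 remaining *Bbc3* peaks lay within the neighbouring gene *Sae1*, from 21050 to 32791 bp from the *Bbc3* start, and 2 of them were lower. The *Sae1* transcript itself passed as higher (log2 fold change 0.23, limma adjusted p = 0.0149). *Pmaip1* had 1 higher peak at 49315 bp upstream (1.14) and 1 lower peak at 5231 bp upstream (-0.81). For *Bid*, a peak in its intron 1 was lower (-0.62) and one in the last exon of the neighbouring gene *Mical3* was higher (0.41). The *Mical3* transcript was called higher (log2 fold change 0.70, limma adjusted p = 0.000919), and both neighbours were named after their values were seen.

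The middle 201 bases of peaks with the largest difference at *Bcl2* and *Bcl2l1*, and of the 2 *Bcl2l11* peaks that closed most, are shown because they carry the accessibility changes described above. They are reference sequence of RefSeq for GRCm38.p6, the same build as mm10, on the forward strand, and not sequence of the NOD strain. Capitals mark matches on either strand to the cores CTTTGA (TCF and LEF factors), TTCNNNGAA (STAT factors), TGTTTAC (FOXO factors) and TGANTCA (AP-1), in which N is any base. A match is a description of the letters only.
*Bcl2*, intron 1, chr1:106706632-106706832, higher in UTX TCD: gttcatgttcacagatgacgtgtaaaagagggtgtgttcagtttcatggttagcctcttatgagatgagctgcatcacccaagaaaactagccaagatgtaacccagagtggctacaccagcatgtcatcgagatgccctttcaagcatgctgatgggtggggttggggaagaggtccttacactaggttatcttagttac
*Bcl2l1*, intron 2, chr2:152803228-152803428, higher in UTX TCD: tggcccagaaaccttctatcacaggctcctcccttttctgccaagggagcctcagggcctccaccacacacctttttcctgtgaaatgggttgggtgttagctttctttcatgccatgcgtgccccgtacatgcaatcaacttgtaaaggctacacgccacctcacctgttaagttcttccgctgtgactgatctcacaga
*Bcl2l11*, in intron 14 of *Acoxl*, chr2:128068183-128068383, lower in UTX TCD: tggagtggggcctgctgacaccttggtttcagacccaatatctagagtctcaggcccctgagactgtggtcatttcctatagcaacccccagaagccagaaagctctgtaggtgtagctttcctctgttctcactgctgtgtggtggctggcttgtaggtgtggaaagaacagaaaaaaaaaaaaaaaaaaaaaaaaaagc
*Bcl2l11*, in intron 16 of *Acoxl*, chr2:128103542-128103742, lower in UTX TCD: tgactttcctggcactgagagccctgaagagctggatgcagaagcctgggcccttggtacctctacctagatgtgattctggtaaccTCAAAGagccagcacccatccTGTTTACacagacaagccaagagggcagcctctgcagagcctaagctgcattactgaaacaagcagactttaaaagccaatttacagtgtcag
Only the last of these 4 windows held a match, 1 to CTTTGA (as its reverse complement on the strand shown) and 1 to TGTTTAC.

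Over their whole 401 bases, 9 of the 33 peaks of the 10 genes held CTTTGA, a share of 27.3% beside 30.6% of the 23907 listed peaks of that length. TTCNNNGAA was found in 3, or 9.09%, beside 11.9%. TGANTCA was found in 5, or 15.2%, beside 12.8%. TGTTTAC was also found in 5, or 15.2%, beside 5.47% of all, and these were 1 peak each at *Bcl2*, *Mcl1* and *Bbc3* and 2 at *Bcl2l11*. Of the 5 peaks with TGTTTAC, 4 were lower in UTX TCD cells and 1, the peak inside *Bbc3*, was higher. The 5 peaks with TGANTCA were likewise 4 lower and 1 higher. Of the 33 peaks as a whole, 20 were lower. Among all 23907 listed peaks of that length, 16464 were higher. Of those with TGTTTAC 837 of 1308 were higher, and of those with TGANTCA 1907 of 3060.

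A further 16 genes of the BCL2 family were taken as a list, of which 11 were tested. Past the test, none was higher and 4 were lower, beside 20.2% and 20.5% of all tested genes, and their median log2 fold change was -0.09. The 3 called genes were all lower, beside 7.05% of tested genes, and are a BH3-only gene, *Bmf*, a survival gene, *Bcl2l2*, and the little-expressed *Bcl2l14*. *Bmf*, whose protein is released from the cytoskeleton to trigger death, was counted at 1212, 1370 and 1228 in WT and at 189, 176 and 87.7 in UTX TCD replicates. Each UTX TCD library held less than any WT library by a wide margin, and *Bmf* fell 8.81-fold (log2 fold change -3.14, SE 0.26, adjusted p = 2.6e-05 from limma), a larger change than that of any of the 10 members. *Bcl2l2*, which encodes the survival protein BCL-W, was counted at 505, 531 and 533 in WT and at 250, 344 and 374 in UTX TCD replicates, and passed (log2 fold change -0.72, SE 0.16, limma adjusted p = 0.00601). Reads of *Bcl2l14* numbered 31, 29 and 44 in WT replicates and 5, 20 and 15 in UTX TCD replicates. It passed (log2 fold change -1.23, SE 0.32, limma adjusted p = 0.0132), though not in 3 of 14 alternative fits. The fourth gene that passed, *Bnip3l*, a mitophagy receptor named after its values were seen, fell by 0.31 on the log2 scale (adjusted p = 0.00127 from limma). *Bcl2a1b* and *Bcl2a1d* are near-identical copies, so reads may have been split between them, and neither passed. *Bcl2l10*, *Bcl2a1a*, *Bcl2a1c*, *Bok* and *Hrk* were not tested, with no more than 9 reads per library.

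*Bmf* also had 6 listed peaks, on chromosome 2, and all 6 were lower in UTX TCD cells, from -2.75 to -0.58 with a median of -1.26. The one at its promoter, chr2:118549412-118549812, had a mean log2 concentration of 9.34 in WT and 8.10 in UTX TCD cells. Its largest difference was at a peak between genes, with 5.49 in WT and 2.74 in UTX TCD cells. Over the 16 genes there were 26 listed peaks, of which 19 were higher and 7 lower, a share of 73.1% higher beside 68.8% of all listed peaks. The single listed peak of *Bcl2l2*, at its promoter, was lower as well (-0.72), whereas all 7 peaks of *Bcl2l14* were higher while its few reads were lower. The other 12 higher peaks lay at 8 genes, among them 2 at *Bnip3l*, whose transcript was lower.

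Downstream of the mitochondria, cytochrome c and APAF1 form the apoptosome, which starts the caspases, and the IAP proteins restrain them. All 20 genes of this list were tested, with a median log2 fold change of 0.04. Past the test, 6 of the 20 were higher and 3 lower, beside 20.2% and 20.5% of all tested genes. Called higher was 1 gene, beside 10.5% of tested genes. The called gene was *Birc5*, which encodes survivin, a protein of dividing cells. *Birc5* was counted at 897, 922 and 965 in WT and at 1451, 1469 and 1968 in UTX TCD replicates, a rise of 0.80 on the log2 scale (SE 0.12, adjusted p = 0.000782 from limma). Of the caspase inhibitors, *Xiap* rose by 0.40 (adjusted p = 0.00084 from limma), with counts of 19677 to 22739 in WT and 26388 to 28966 in UTX TCD cells. *Birc6* and *Birc2* rose by 0.25 and 0.24 on the log2 scale (adjusted p = 0.00382 and 0.0151 from limma), and without WT replicate 1 the rise of *Birc2* did not pass (adjusted p = 0.0605). On the side of caspase activation, *Apaf1* rose by 0.25 (adjusted p = 0.00151 from limma). *Cycs*, the gene of cytochrome c, fell by 0.32 (adjusted p = 0.0017 from limma). *Diablo*, whose protein relieves the block by IAP proteins, fell by 0.29 (adjusted p = 0.00109 from limma). *Dffa*, the inhibitor of the apoptotic nuclease, fell by 0.16 (adjusted p = 0.0157 from limma), though its adjusted p was 0.101 with libraries scaled to the same sum. *Dffb*, that nuclease, had groups apart at 3027 to 3161 in WT and 3237 to 3497 in UTX TCD cells and did not pass (adjusted p = 0.127 from limma). With libraries scaled to the same sum, *Dffb* passed as higher (log2 fold change 0.18, limma adjusted p = 0.0242). The named genes that rose thus included inhibitors of caspases and *Apaf1*, which activates them.

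Upstream of the family stand p53, FOXO factors, cytokine receptors and the ubiquitin enzymes that control MCL1. Of 19 listed regulators 18 were tested, with a median log2 fold change of 0.00. Of these 18, 5 passed as higher and 4 as lower, beside 20.2% and 20.5% of all tested genes. The 3 called higher, beside 10.5% of tested genes, were *E2f1*, *Il2rb* and *Ddit3*. *E2f1*, a cell cycle factor, was counted at 414, 540 and 512 in WT and at 1341, 1566 and 1482 in UTX TCD replicates, a rise of 3.00-fold (log2 fold change 1.59, SE 0.12, adjusted p = 1.55e-05 from limma). *Il2rb*, the chain shared by the receptors of IL-2 and IL-15, was counted at 38451, 41256 and 37165 in WT and at 62265, 61468 and 56764 in UTX TCD replicates (log2 fold change 0.63, SE 0.05, adjusted p = 3.65e-05 from limma). *Ddit3*, which encodes the stress factor CHOP, rose by 0.62 on the log2 scale (SE 0.08, adjusted p = 0.00032 from limma), from 2274 to 2699 in WT to between 3635 and 4155 in UTX TCD cells. Called lower was *Pim1*, a survival kinase, counted at 3429, 3513 and 3454 in WT and at 2065, 2120 and 3103 in UTX TCD replicates (log2 fold change -0.54, SE 0.14, adjusted p = 0.0124 from limma). UTX TCD replicate 3 of *Pim1* lay nearest to the WT values. Its call was lost, though it still passed, with libraries scaled to the same sum and without UTX TCD replicate 1 (log2 fold change -0.43) or 2. The others that passed are named after their values were seen. *Huwe1*, a ubiquitin ligase of MCL1, rose by 0.30, and *Mdm2*, the ligase and target of p53, rose by 0.26 on the log2 scale (adjusted p = 0.000885 and 0.00125 from limma). *Il2rg*, *Foxo1* and *Fbxw7* fell by 0.27, 0.15 and 0.15 (adjusted p = 0.0073, 0.0391 and 0.045 from limma), and those of *Foxo1* and *Fbxw7* were under 0.05 in 7 and 6 of 15 alternative fits. *Trp53* itself was counted at 29137, 27145 and 28669 in WT and at 29620, 29747 and 28776 in UTX TCD replicates, with overlapping groups (log2 fold change 0.05, adjusted p = 0.347 from limma). It passed as higher with libraries scaled to the same sum (log2 fold change 0.12, limma adjusted p = 0.0344).

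Over the 6 libraries, the 3 genes whose centred log2 values lay nearest to those of *Bcl2*, among 14458 compared, were *Tert*, *Dna2* and *Stmn1*. The root mean square difference from *Bcl2* was 0.085, 0.086 and 0.093 on the log2 scale. *Tert*, the catalytic subunit of telomerase, was counted at 305, 320 and 320 in WT and at 713, 773 and 825 in UTX TCD replicates. *Dna2*, a nuclease and helicase of DNA repair, had 422, 457 and 402 in WT and 996, 946 and 1131 in UTX TCD replicates. *Stmn1*, a regulator of microtubules, had 2100, 2217 and 1989 in WT and 4526, 4712 and 5292 in UTX TCD replicates. The 3 genes were picked for this likeness, so that they share the difference between the genotypes is no separate finding.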

How the data were processed

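RNA-seq and ATAC-seq were deposited for 3 libraries per genotype, grouped by the labels. For RNA-seq the authors aligned reads to mm10 with HISAT2 2.2.1, counted genes with featureCounts and deposited a signal per gene, the count divided by 1 DESeq2 size factor. The deposited values were whole multiples of 1 step per library, and 100% came out as whole reads within 0.01. For ATAC-seq the authors used FastQC, cutadapt, Bowtie2, SAMtools, Picard and MACS2, and deposited DiffBind mean log2 concentrations per genotype with HOMER annotation. A read shift for the transposase is not given in the sources used here. The FDR (q-value) the authors deposited was used only to test which peaks were listed, and no listed peak was at or over 0.05. Columns of the authors' own comparisons, which hold log2 fold changes, their SE and p-values, were not used.

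Log2(normalized count + 1) of genes averaging 10 or more was compared by limma 3.58.1 (R 4.3.3, moderated t test with a trend), after a trial on simulated data. The log scale understates changes of low genes. Whole reads were tested with edgeR 4.0.16 and DESeq2 1.42.0 as alternatives. Alternatives also covered pseudocounts, filters, scalings, a replicate block, left-out libraries and peak limits. Sequences were read with samtools 1.23.1 and Python 3.11.15, and figures drawn with matplotlib 3.10.9. A share of 3 reads was between 1.55e-08 and 4.88e-08 of a library and covers counting error only. Named genes were all members, *Kdm6a*, up to 4 called genes per direction and list with the largest change, genes with groups apart where a list had fewer than 3 called, and the 3 genes nearest to *Bcl2*. Not every item selected in this way is reported. Members and lists were chosen with earlier results of these data known.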

Additional observations from a re-analysis of the deposited data

How the results depend on the processing

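*Bcl2*, *Bcl2l1* and *Bbc3* passed the test as higher, and *Bak1* as lower, in all 15 alternative fits (pseudocounts, filters, scalings, edgeR, DESeq2, the replicate block and each library left out). *Pmaip1* passed in 14, *Bid* in 7 and *Bcl2l11* in 6, each lower throughout. The members that passed as lower therefore numbered 2 instead of 4 without a filter on low counts, 1 with libraries scaled to the same sum, and between 2 and 3 with each library left out. Without WT replicate 1 the fold of *Bcl2l11* reached -0.52, and 1 member was called lower, against 0 to 1 over all left-out libraries. With an adjusted p under 0.05 alone, the called genes rose to 2924 higher and 2963 lower, and 4 members were lower. Same-numbered libraries correlated in their deviations at 0.305, -0.20 and 0.0897, so the numbers were not taken to pair the mice. With the number as a block, 3 members passed as higher and 3 as lower, and 2833 and 2869 of all genes did. Among the peaks, 6 instead of 13 were higher and 16 instead of 20 lower at a difference over 0.5, where 67.5% of all listed peaks were higher. Within 1 kb of the start site in the authors' annotation 1 was higher and 0 were lower, where 86.4% of all listed peaks were higher. That 1 peak, at *Bbc3*, is over 1 kb from the RefSeq gene start. No library could be left out for the peaks, whose values are means per genotype. The ratio of *Bcl2* to *Bcl2l11* differed by 1.47 to 1.83 with each library left out. UTX TCD replicate 1 was the shallowest library, with 61512402 reads, which limits genes of few reads such as *Bcl2l14*. The spread of 3 mice, and the lack of values per library for the peaks, limit what small differences such as that of *Bid* can show. Other causes of these changes were not tested.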
